A study of Drosophila melanogaster with 13 samples.

Results

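Transcripts of roo's, 3S18's, copia's and 1731's retrotransposon families were followed in cultured ovarian somatic cells of Drosophila melanogaster after loss of Yb or Armitage. The families were picked by name: every row of the authors' deposited tables whose element name is one of the 4 was taken, on the sense and on the antisense strand (TE:roo, TE:3S18, TE:copia and 1731's row, each with an antisense partner). That gave 8 rows in each of the 2 tables, out of 8475 rows (184 of them transposon rows) for Armitage and 8480 rows (183) for Yb. All 8 rows had a p-value in both tables.

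All 4 families are long terminal repeat (LTR) retrotransposons, which are transcribed from one LTR to the other and copied back into DNA by their own reverse transcriptase. roo and 3S18 belong to the BEL group, and copia to the copia group, which is 1731's group too. Both groups stand apart from the gypsy group, to which the LTR elements best known from follicle cells (gypsy, ZAM) belong. In the follicle cells that surround the germline, transposons are silenced by Piwi-interacting RNAs (piRNAs), many of them cut from transcripts antisense to the elements. Yb gathers piRNA precursors in perinuclear bodies, and Armitage is an RNA helicase that brings them to the processing machinery on mitochondria. A sense transcript can serve as the element's messenger and genomic RNA, while an antisense transcript cannot encode the element's proteins and can come from a piRNA source locus or from a neighbouring gene.

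The cells are OSC, a line of follicle cell origin, with genotype wildtype in every group. Control cells (siLUC, 3 libraries) received small interfering RNA (siRNA) against luciferase, a gene flies lack. The other groups received siRNA against Yb (siYB, 3 libraries) or Armitage (siARMI, 3 libraries). All were transfected at 0 and 48 h and harvested at 96 h. Per the labels' protocol the libraries were poly(A)-selected and directional, so RNA without a poly(A) tail would be under-represented. Their names carry a tag, RZ, which the labels do not explain, so how the RNA was selected is known only from the protocol. A further 4 libraries from 4-thiouridine labelling were not analysed here.

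The files hold no values per library, and the depth of each library is unknown. For each row the authors' deposited tables give 1 mean normalised count for control and knockdown libraries together. They also give a log2 fold change of knockdown against control with its error, and p-values. Rows with an adjusted p under 0.05 are called. The knockdowns are visible in their targets: armi stood at −1.92 ± 0.07 in the siARMI table (adjusted p = 3.98e-174) and fs(1)Yb, the gene of Yb, at −2.17 ± 0.51 in the siYB table (adjusted p = 6.04e-04), both from the authors' deposited tables. The 9 measured follicle cell markers had mean normalised counts from 2.24 (upd1) to 5825 (the traffic jam gene tj) in the authors' deposited table for siARMI, with piwi at 4331 and slbo and bond at 11.7 and 15.9. The 9 measured germ cell markers ran from 2.29 (bam) to 439 (qin), with vas at 6.34, aub at 5.43, AGO3 at 78.0 and del at 345.

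In control cells copia was by far the most abundant of the 4 families. A control level was worked out from each deposited mean count and log2 fold change, taking both groups as equal in size, and is called an implied count here. The implied siLUC count was 90149 for sense copia, 9832 for sense 3S18, 4018 for 1731's sense row and 555 for sense roo. Sense copia ranked 2nd of all rows of the siARMI table by mean normalised count, sense 3S18 61st, 1731's sense row 202nd and sense roo 2062nd.

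Lengths were taken from the reference annotation, as the commonest length of long copies. It was 5146 bp for copia, 6127 bp for 3S18 and 9101 bp for roo, and 1731's was 4648 bp. Per kilobase of element, the implied siLUC count was 17518 for sense copia, 1605 for sense 3S18, 864 for 1731's sense row and 61.0 for sense roo. The order of the sense rows was the same per length as in counts, and no neighbours overlapped within the error of the fold change: 1731's sense row lay between 3906 and 4131 counts, and sense 3S18 between 9623 and 10042. These ranges carry the error of the fold change only and hold the mean count fixed, so they leave out part of the spread between libraries. On the antisense strand the implied siLUC count was highest for roo (1005 to 1117), followed by copia (735 to 889), 3S18 (325 to 345) and 1731's row (11.2 to 15.2), again without overlap. Per kilobase, antisense copia at 158 stood above antisense roo at 116.

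The strands were used very unequally. Antisense rows held 0.840% of the copia counts of the siARMI table (95% Wilson interval 0.786 to 0.898%, counting error only), 0.335% of 1731's counts (0.206 to 0.561%) and 2.30% of those of 3S18 (2.02 to 2.60%). For roo the antisense row held 81.5% (80.2 to 82.7%), so roo was mainly an antisense signal in these cells. Among the 84 families measured on both strands 1731's antisense share was the 2nd lowest and that of copia the 6th lowest, whereas roo ranked 69th from the lowest. These ranks rest on means over control and knockdown libraries. By the shares implied for siLUC alone 1731's rank was again the 2nd and that of copia the 6th, while roo ranked 53rd, and for siARMI alone roo ranked 75th. How much antisense signal the strand chemistry of the library leaves by itself was not tested, and 6 of the 84 families lay under 1%, copia among them, as did 1731's.

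After Armitage knockdown the families moved apart on their antisense strands, and 3 of the 4 sense rows rose slightly. Antisense roo rose 4.53-fold, antisense 3S18 fell to 0.398 of its control level, and sense roo rose 1.40-fold, sense copia 1.22-fold and 1731's sense row 1.19-fold. Of the 8 rows 5 passed the test, 4 higher and 1 lower. Of all rows tested for Armitage 28.6% were called, 15.2% higher and 13.4% lower. Among sense transposon rows 45.1% were called higher, and 3 of the 4 sense rows here were; among antisense transposon rows 8.6% were called higher and 25.8% lower.

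**Figure D1:**
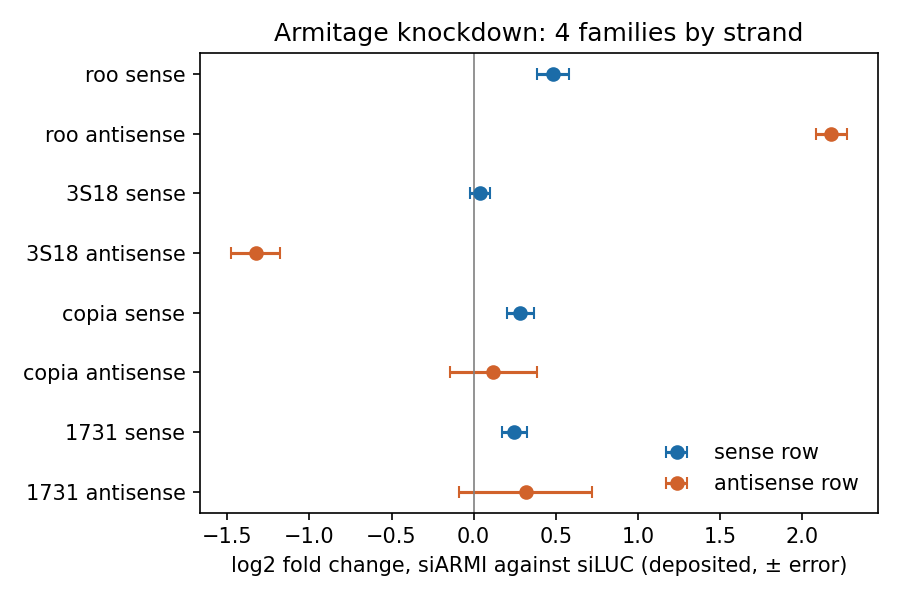
Log2 fold change of siARMI against siLUC for the sense (blue) and antisense (orange) row of each family, as deposited, with the deposited error as bars. Antisense roo at 2.18 and antisense 3S18 at −1.33 lie far from 0, while the other rows lie between 0.04 and 0.49.

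The antisense strand of roo carried the largest change. Its log2 fold change was 2.18 ± 0.09 in the authors' deposited table (adjusted p = 6.69e-120). The implied count was 1060 in siLUC (1005 to 1117 within the error of the fold change) and 4801 in siARMI (4744 to 4856), a gain of 3741. Both ranges come from the same fold change and its error, so they add nothing to the deposited test. Among the 93 antisense transposon rows this was the 2nd highest fold change, after transib2, a DNA transposon with a mean normalised count of only 9.47 (log2 fold change 4.09 ± 0.99 in the authors' deposited table). The next rows were antisense G5 at 1.86 ± 0.64, antisense Transpac at 1.75 ± 0.19 and antisense invader2 at 1.59 ± 0.21 in the authors' deposited table, with mean normalised counts of 13.8, 125 and 107 against 2931 for antisense roo.

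Sense roo rose with it, but by much less. In the authors' deposited table it was higher by 0.49 ± 0.10 on the log2 scale (adjusted p = 3.15e-06), with an implied count of 555 in siLUC and 777 in siARMI. The antisense share of roo counts was thus 65.6% in siLUC (95% Wilson interval 63.3 to 67.9%) and 86.1% in siARMI (85.1 to 87.0%), both from implied counts. These intervals cover counting error only, leave out the spread between libraries and are no test of the difference. The log2 fold change of the antisense row exceeded that of the sense row by 1.69, the 3rd highest such difference among the 84 families. Both strands were called higher in 4 families, which were Doc, Quasimodo, FB4 and roo, whereas 18 families had a higher sense and a lower antisense row. Nearest to sense roo in fold change were the sense rows of R2-element at 0.52 ± 0.06, of TART-A at 0.45 ± 0.21 and 17.6's sense row at 0.53 ± 0.14 in the authors' deposited table.

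**Figure D2:**
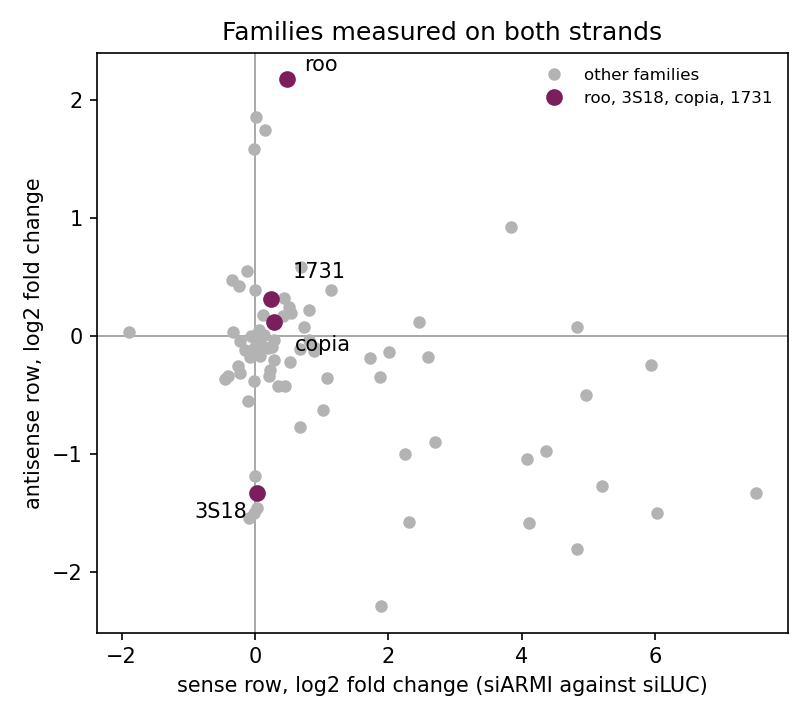
Log2 fold change of siARMI against siLUC for the sense row (horizontal axis) and antisense row (vertical axis) of the 84 families on both strands, with the 4 families in purple. roo lies high with 0.49 and 2.18, 3S18 lies low on the line of no sense change with 0.04 and −1.33, and copia lies near the centre, as does 1731's point.

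3S18 showed the opposite arrangement: the antisense strand fell and the sense strand, which is far more abundant, did not pass the test. Antisense 3S18 stood at −1.33 ± 0.15 in the authors' deposited table (adjusted p = 3.79e-18), with an implied count of 335 in siLUC (325 to 345) and 133 in siARMI (124 to 144). Those ranges, too, both follow from the fold change and its error. Sense 3S18 stood at 0.04 ± 0.06 in the authors' deposited table (adjusted p = 0.705), with implied counts of 9832 and 10085. Within 1 error its fold change lay between 0.983 and 1.07.

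The antisense share of 3S18 counts was 3.29% in siLUC and 1.31% in siARMI, from implied counts. Of the 84 families 6 had a lower antisense row without a call on the sense row: 3S18, G6, gypsy10, gypsy2, gypsy6 and jockey. The rows nearest to antisense 3S18 in fold change were antisense mdg1 at −1.33 ± 0.09, antisense Tabor at −1.26 ± 0.10 and antisense G6 at −1.45 ± 0.11 in the authors' deposited table. The sense rows of mdg1 and Tabor, both gypsy-group elements, rose by 7.52 and 5.20 on the log2 scale in that deposited table. Antisense mdg1 and antisense 3S18 thus have the same log2 fold change to 2 decimals, beside sense rows at 7.52 and 0.04.

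Both copia-group families rose slightly on the sense strand. The authors' deposited table gives sense copia 0.28 ± 0.08 on the log2 scale (adjusted p = 0.00272) and 1731's sense row 0.25 ± 0.07 (adjusted p = 0.00394). Because copia is so abundant, its small rise amounts to 19644 implied counts, from 90149 to 109792, more than the 3741 gained by antisense roo. 1731's implied sense counts were 4018 and 4771.

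Changes of this size were common, since 15.9% of all rows of the siARMI table had a higher fold change than sense copia and 18.5% a higher one than 1731's sense row. Copia1, another element named for copia, stood beside them at 0.25 ± 0.09 in the authors' deposited table (adjusted p = 0.0220). The antisense rows did not pass the test, with copia at 0.12 ± 0.26 (adjusted p = 0.720) and 1731's at 0.32 ± 0.40 (adjusted p = 0.334) in the authors' deposited table. 1731's antisense row had a mean normalised count of 14.8, and its fold change lay anywhere from 0.942 to 1.65 within 1 error.

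Other families of the BEL and copia groups were read from name lists, beside 15.2% of all rows called higher and 13.4% called lower. Among 5 other sense rows of the BEL group 0 were higher, 1 was lower and 4 did not pass; the one that fell was diver, at −0.22 ± 0.07 in the authors' deposited table (adjusted p = 0.00624). No antisense row of those 5 families was called, and their unadjusted p-values were 0.151 or more in the authors' deposited table. rooA, named for its likeness to roo, stood at 0.04 ± 0.36 on the sense and −0.04 ± 0.35 on the antisense strand in the authors' deposited table, with mean normalised counts of 10.3 and 8.75. frogger, of the copia group, had a mean normalised count of only 1.64 and did not pass. In the gypsy group 21 of 40 sense rows were higher and 3 lower, with a median log2 fold change of 0.74, against 45.1% of all sense transposon rows called higher. On the antisense strand 17 of 42 rows of that group were lower and 3 higher, against 25.8% and 8.6% of all antisense transposon rows. The median over the 4 sense rows here was 0.27, and over all rows of the table −0.01.

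The 4 families made up a smaller share of all transposon counts after Armitage knockdown, although none of their sense rows fell. Their 8 rows held 22.0% of the implied transposon counts in siLUC and 17.1% in siARMI, with sense copia alone at 18.6% and 14.3%. All transposon rows together gained 280211 implied counts, and the 8 rows 24484 of these.

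Yb knockdown gave no call among the 8 rows (0 of 8, against 0.189% of all rows tested for Yb). A single row, antisense roo, had an unadjusted p below 0.05 (p = 0.0383, adjusted p = 1.00, positive sign, from the authors' deposited table). The next lowest unadjusted p was 0.293, for antisense 3S18, with a negative sign, and the others lay between 0.456 and 0.990. The siYB table as a whole had 66 rows with an unadjusted p under 0.05, where 423.9 would be given by chance. Mean normalised counts summed to 1642735 over the siYB table and to 6210715 over the siARMI table. With such unlike scales the numbers of calls for Yb and Armitage cannot be compared directly. Whether read depth differed, and what part it had in the missing calls, was not tested. All 8 log2 fold changes had been shrunk to about 0 by the authors and carry no size.

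Sizes for Yb were therefore rebuilt from the mean counts, a step chosen after the data had been seen. The implied siLUC count from the siARMI table was divided by a scale of 3.72. That scale is the median, over 3140 gene rows, of the implied siLUC count over the siYB mean count. The siYB level was then the value that averages with this scaled siLUC count to the siYB mean count. The step assumes that both tables rest on the same siLUC libraries, so the rebuilt values share their controls with the Armitage comparison. In the 22 rows whose siYB estimate was kept in the deposited table, the rebuilt log2 ratio differed from it by a median of 0.11 (−0.50 to 0.92) and lay within 1 deposited error in 20. The only rows with negative estimates, fs(1)Yb and antisense rover, were the ones that lay outside 1 deposited error. Both came out nearer to 0, at −1.53 and −1.55 against −2.17 and −2.47 in the authors' deposited table.

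**Figure D3:**
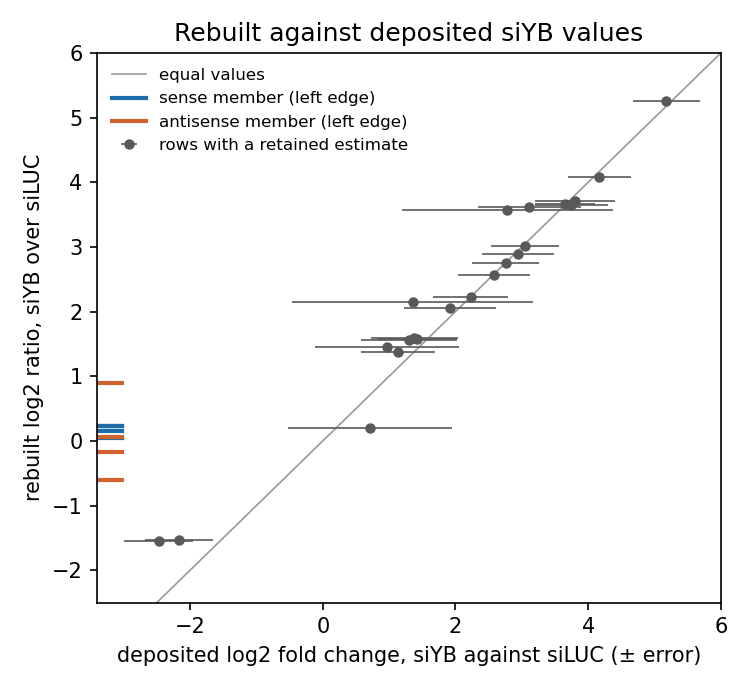
Rebuilt log2 ratio of siYB over siLUC against the deposited siYB log2 fold change with its error, for the 22 rows whose deposited estimate was not shrunk to 0; the grey line marks equal values. Ticks at the left edge give the rebuilt ratios of the 8 rows of the 4 families (sense blue, antisense orange), which run from −0.61 to 0.89.

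By these values antisense roo was the row farthest above control of the 8. The same implied siLUC count enters both comparisons, so a low value there raises both, and the rebuilt ratio is no second measurement. Its rebuilt log2 ratio was 0.89 (0.78 to 1.01 within the error of the siARMI fold change), from 1060 counts in siLUC to 1971 in siYB in siARMI-table units. Ranges of rebuilt ratios hold the siYB mean count and the scale fixed, so they are too narrow. Sense roo lay at 0.05 (−0.06 to 0.16), with 555 counts in siLUC and 574 in siYB. The rebuilt antisense share of roo was 77.4% in siYB, beside 65.6% in siLUC and 86.1% in siARMI. These values have no test of their own, and the only test, that of the authors' deposited table, did not pass for antisense roo.

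For antisense 3S18 the rebuilt log2 ratio was −0.61 (−0.71 to −0.50), from 335 counts to 220.1 in siARMI-table units, with the same limit. Sense 3S18 lay at 0.16, sense copia at 0.23 and 1731's sense row at 0.24. Gene rows of at least 100 counts had rebuilt ratios from −0.24 to 0.26 between the 5th and the 95th percentile, so these sense values are within that spread, although only 2 gene rows had a count like that of copia. In 5 of the 8 rows the rebuilt sign differed from the sign in the authors' deposited table: the sense rows of 3S18 and copia, 1731's rows on both strands, and antisense copia. The direction of those 5 after Yb knockdown is unknown. Antisense copia at 0.06 and 1731's antisense row at −0.17 were within the spread of gene rows as well.

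**Figure D4:**
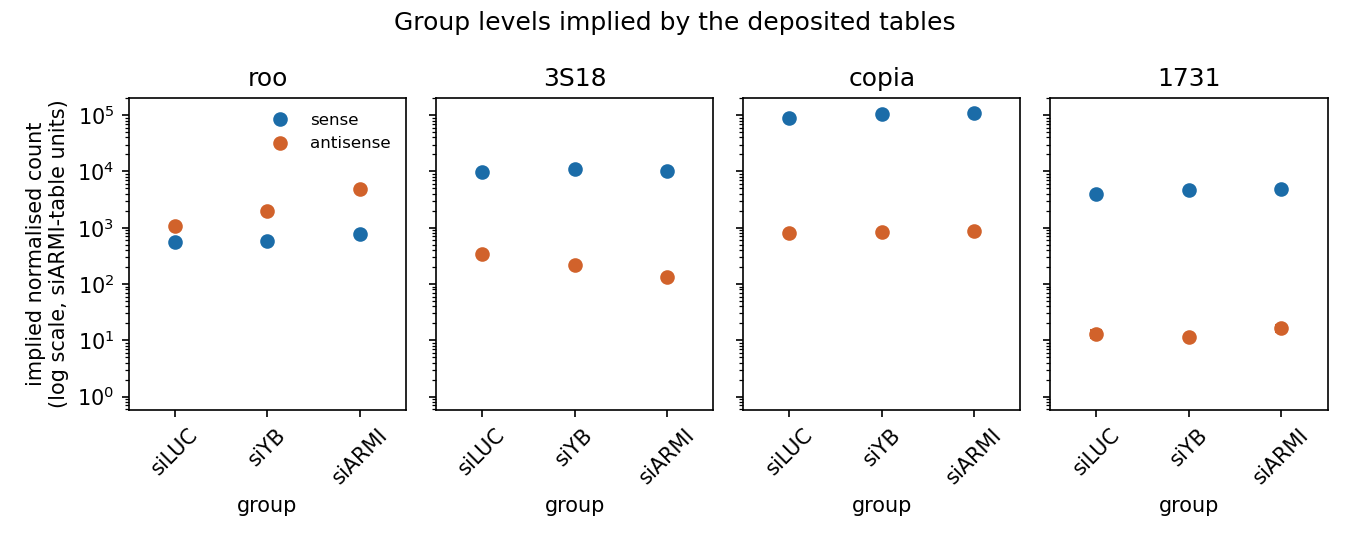
Normalised counts implied for siLUC and siARMI and rebuilt for siYB (siARMI-table units, log scale), sense in blue and antisense in orange; bars on siLUC and siARMI, mostly smaller than the points, are the range within the error of the fold change. Antisense roo goes from 1060 in siLUC over 1971 in siYB to 4801 in siARMI and antisense 3S18 from 335 over 220.1 to 133, while the sense points move by 1.40-fold at most from siLUC to siARMI.

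The families also differ in the copies they have in the reference genome (Ensembl annotation of BDGP6.54), which is that of a sequenced fly strain and not of these cells. Of 5887 annotated transposon copies, with entries for the same locus counted once, 144 are of roo, 39 of copia and 19 of 3S18, and 16 are 1731's. Within 10% of the commonest long length lie 81 roo copies, 29 of copia, 6 of 3S18 and 5 of 1731's. A second group of roo copies is short, with 11 of exactly 428 bp. No copy of the 4 families overlaps flamenco (lncRNA:flam, FBgn0267704; chromosome X, 21631891 to 21790731, plus strand, BDGP6.54), the main piRNA source locus of follicle cells, among 47 transposon copies annotated there.

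**Figure D5:**
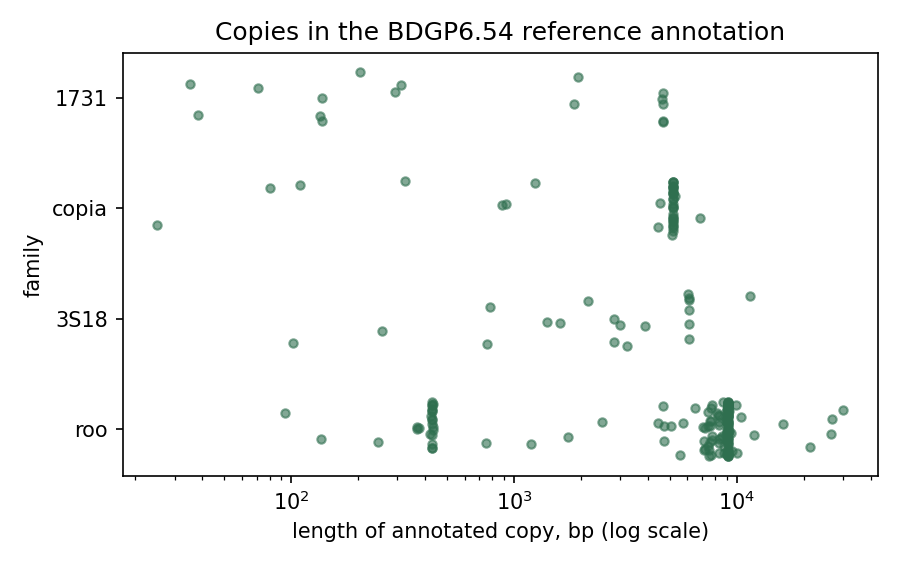
Length in bp (log scale) of each annotated copy of the 4 families in the reference genome, 1 point per copy, with vertical scatter for visibility. copia copies crowd at 5146 bp, roo copies at about 9101 bp and at 428 bp, and few of 3S18's and 1731's copies are long.

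Many long copies lie inside genes. Of the 81 near full-length roo copies 55 lie within an annotated gene, 48 of them in an intron. For 29 copies a host gene is on the opposite strand. Its unspliced transcript would hold antisense roo sequence, while splicing would take out a copy in an intron. These 29 copies lie in 30 host genes, of which 21 had a row in the siARMI table. Of those 5 were higher, 4 lower and 12 did not pass, with a median log2 fold change of −0.04. The host genes on the same strand as a long roo copy were higher in 5 and lower in 2 of 14 cases. In either direction 42.9% of the opposite-strand and 50.0% of the same-strand hosts were called, against 28.3% of all gene rows, with no test of that difference.

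Single hosts moved strongly and are named here after their values were seen. Rbp6, which encodes an RNA-binding protein, has a roo copy on the opposite strand in an intron (chromosome 3L, 17085060 to 17094150, plus strand, BDGP6.54) and rose by 5.94 ± 0.75 on the log2 scale (authors' deposited table, adjusted p = 8.66e-14). Its implied count went from 1.21 to 74.0. dnc, which encodes the cyclic AMP phosphodiesterase Dunce, has a roo copy on the opposite strand in an intron (chromosome X, 3218561 to 3227651, minus strand, BDGP6.54) and was lower at −1.36 ± 0.11 in the authors' deposited table (adjusted p = 1.25e-36). KCNQ, a potassium channel gene with a roo copy on its own strand (chromosome 2R, 10176935 to 10186043, minus strand, BDGP6.54), rose by 2.59 ± 0.22 on the log2 scale (authors' deposited table, adjusted p = 2.81e-30).

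Long 3S18 copies lie in introns of few genes, and the counts of hosts stand beside 28.3% of all gene rows called. With the host on the opposite strand, 2 of 3 measured hosts were higher, CG32816 by 3.49 ± 0.58 and GEFmeso by 1.21 ± 0.17 in the authors' deposited table; the single measured host on the same strand, CG12535, was higher by 1.87 ± 0.18 in that deposited table. GEFmeso also holds a long roo copy in the reference. Of the measured copia hosts 1 of 8 was higher and 1 lower on the same strand, and 1 of 8 was higher on the opposite strand, which are 25.0% and 12.5% called. Whether these copies exist in the OSC genome, and whether reads of host transcripts are part of the antisense rows, was not tested.

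Genes of small RNA pathways were read beside the families, with 13.4% of all rows called lower after Armitage knockdown. Of 9 piRNA genes, armi and fs(1)Yb included, 7 were lower, 0 higher and 2 did not pass, with piwi at −0.52 ± 0.08 in the authors' deposited table. Of 5 genes of the siRNA pathway, which also acts on transposon RNA in cultured fly cells, Dcr-2, the dicer that cuts long double-stranded RNA, was lower at −0.41 ± 0.08 in the authors' deposited table (adjusted p = 9.52e-07). The other 4 did not pass, among them AGO2, the Argonaute that carries siRNAs, at −0.04 ± 0.06 in the authors' deposited table. After Yb knockdown only 0.189% of all rows tested were called, so few calls would be found in any short list. Of the 9 piRNA genes 1 was lower, the targeted fs(1)Yb itself. Of the 5 siRNA genes 0 were called, with unadjusted p-values of 0.509 or more in the authors' deposited table.

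Markers of cell type stand beside 28.6% of all rows called after Armitage knockdown. Among 9 measured follicle cell markers 5 were higher and 2 lower after Armitage knockdown, with Fas3, a septate junction protein gene, at 2.13 ± 0.18 and tj at −0.30 ± 0.07 in the authors' deposited table; their implied sum was 13964 in siLUC and 14432 in siARMI. Of 9 germ cell markers 2 were higher and 1 lower, which is near that share, with a sum of 937 and 883. Of 4 markers of muscle, neurons and hemocytes 2 were higher, Mhc at 1.08 ± 0.27 and srp at 1.05 ± 0.19 in the authors' deposited table, and their sum was 468 and 715. Of the follicle and germ cell markers 1 each had no row, and none of those with a row had a mean count of 0. The part of these shifts in the results for the 4 families was not tested, and in bulk RNA fewer cells of a type and less RNA per cell cannot be told apart.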

How the data were processed

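RNA of OSC cells was sequenced in 3 siLUC, 3 siYB and 3 siARMI libraries. Separate cultures are not stated in the labels, so the spread behind the p-values may be technical. The submitters' processing notes name Salmon 1.7.0, STAR, Bowtie, HOMER, DESeq2 and edgeR without their roles. No source used here gives the genome build of the counting. Per the file headers, the authors deposited 1 table per knockdown with a mean normalised read count (a signal scaled by the authors), a log2 fold change and its error. The deposited p-value of each row stands beside its adjusted form, which equals a Benjamini-Hochberg adjustment over the table (largest difference 3.64e-14). The log2 fold changes were shrunk by the authors, and those of 8458 of 8480 siYB rows to about 0.

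The suffix AS was read as the antisense strand, which the files do not document. Counts are per family, since reads of near-identical copies cannot be placed on 1 copy. The sign was read as knockdown against control, from the targeted genes. The planned count tests need values per library and were not run. Implied and rebuilt counts were computed with numpy 2.4.6 and pandas 2.3.3. The steps were run on simulated data with shared controls, a common scale and unshrunk fold changes, so those assumptions were not tested. Wilson intervals (95%) came from scipy 1.17.1 on rounded mean counts and cover counting error only.

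All 8 rows of the 4 families are named. By the rule for named rows, the 3 same-strand transposon rows nearest to each in siARMI fold change were also found. They are named for sense and antisense roo, antisense 3S18 and, in part, 1731's sense row. Most others had low mean counts and are not described. Exceptions were antisense Doc, nearest to 1731's antisense row, and antisense blood, near antisense copia. Their mean normalised counts were 1212 and 485, and their deposited log2 fold changes 0.32 ± 0.08 and 0.08 ± 0.10. The members and lists were chosen with earlier results of these data known. Dm88 was left out of the gypsy-group list because its group was not certain, and it is in no other list. Its sense row stood at 0.89 on the log2 scale in the authors' deposited table for siARMI (adjusted p = 0.00138). The mean normalised count of that row was 80.2. Sequences of the elements were not used here. Alternatives were other thresholds, Holm adjustment, filters on the mean count, a least fold change, and a normal p from the fold change and its error.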

Additional observations from a re-analysis of the deposited data

How the results depend on the processing

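Of the 8 rows after Armitage knockdown 5 were called. With Holm adjustment the count was 3 (2 higher), and sense copia lost its call, as did 1731's sense row. When a log2 fold change of 1 or more in size was also required the count was 2 (1 higher), and sense roo, sense copia and 1731's sense row lost theirs. Antisense roo stayed higher and antisense 3S18 lower under both. The shares of all rows called under these settings are not given here. The counts of 3 and 2 therefore cannot be set against all rows. Over the 7 settings tried, the called rows kept their call in 30 of 35 results and lost it in these 5. The rows not called in either table stayed so in 73 of 73. Much of this was fixed in advance. A stricter threshold, Holm adjustment and a least fold change can only remove calls, and a looser threshold can only keep them. The shrunk siYB estimates cannot give a low normal p either. The antisense share of roo was 81.5% from the siARMI means and 72.9% from the siYB means, and 65.6% in siLUC and 86.1% in siARMI from implied counts. That of 3S18 was 2.30% from the siARMI means, with 3.29% in siLUC and 1.31% in siARMI. Recentring on the median of gene rows, chosen after seeing the data, shifted log2 fold changes by 0.01. Rebuilt Yb ratios with other scales, also chosen after seeing the data, ran from 0.88 to 0.89 for antisense roo and from −0.64 to −0.61 for antisense 3S18.

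No paired analysis was possible because the files hold no values per library. Leaving out a replicate and edgeR against DESeq2 size factors were not run for the same reason. The depth of each library is unknown, and shrinkage by the authors limits the sizes.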
